A study of Mus musculus with 9 samples.

Results

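The collagen chains of the mouse were read in sorted skin innate lymphoid cells (ILCs). Members were every probe set with a single platform gene symbol made of Col, a number, the letter a and a number. The rule found 46 of 24922 probe sets, for 44 of 19752 genes. All but 2 genes had 1 probe set, and Col6a5 and Col6a6 had 2 each. The 44 genes comprise 11 fibrillar chains, 6 chains of the basement membrane network, 6 of the beaded filament and 9 fibril-associated chains. The others are the anchoring fibril chain, 3 hexagonal network chains, 2 multiplexins, 4 transmembrane collagens and 2 chains outside these classes.

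The study set CCR10+ against CCR10- skin ILCs in animals that had or lacked Rag1, which T and B cells need to assemble their receptors. All mice were female B6 animals with EGFP at 1 Ccr10 allele (CCR10+/EGFP), which the controls carry too. Cells were sorted as CD45.2+ CD3- Lin- from digested skin into a GFP+ and a GFP- fraction. There were 2 arrays each of GFP+ and GFP- cells from CCR10+/EGFP mice without the Rag1 deletion (Rag1-sufficient), and 2 of GFP+ and 3 of GFP- cells from Rag1-/- CCR10+/EGFP mice. The exclusion panel covered T, B, myeloid and erythroid antigens (CD3, CD5, B220, CD11b, Gr-1, 7-4 and Ter). It holds no marker of fibroblasts or other stromal cells, which the CD45.2 gate alone would leave out. The labels give no age and no animal for any replicate. The p-values therefore rest on sample-to-sample spread that may be technical.

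Collagens are triple helices of 3 alpha chains, and each kind of chain has its own gene. Fibrillar collagens form the rope-like fibres of the dermis, type IV collagen the sheet under epithelia and around vessels, and type VII collagen the fibrils that anchor the epidermis. In skin, dermal fibroblasts make most of the fibrillar chains, and keratinocytes and endothelial cells add basement membrane chains. Lymphocytes are not known as a main source of any of them, so collagen signal in sorted lymphocytes is a common reading of stromal RNA carried through the sort.

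The genes for both chains of type I collagen and the single chain of type III collagen varied together over the arrays, as given below, and the promoters of Col1a2 and Col3a1 are shown for that reason. Each line gives the last 150 bases before the start of the gene in RefSeq (GRCm38.p6), on the plus strand of chr6:4505468-4505617 and chr1:45311388-45311537. Capitals mark the 1 motif found in the stretch, CCAAT in Col1a2, 109 bases before the start, and TATAAA in Col3a1, 117 bases before it.
Col1a2: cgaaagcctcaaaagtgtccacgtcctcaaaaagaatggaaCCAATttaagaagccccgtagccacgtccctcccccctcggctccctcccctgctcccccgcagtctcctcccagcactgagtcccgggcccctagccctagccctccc
Col3a1: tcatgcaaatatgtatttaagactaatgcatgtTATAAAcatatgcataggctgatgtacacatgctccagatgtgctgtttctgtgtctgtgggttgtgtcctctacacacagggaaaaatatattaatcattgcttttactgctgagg
The motifs CCAAT and TATAAA, which share no overlap, were searched on both strands of the 250 bases before each start. CCAAT was present in 13 of 38 collagen promoters of 35 genes (34.2%), against 33.8% of 32851 promoters, and TATAAA in 5 of 38 (13.2%) against 12.4%. Neither share describes a used site.

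Levels are the deposited intensities, on a linear scale. No detection calls came with them, so no chain can be called present or absent, and levels are compared for 1 probe set across arrays and never between probe sets. Sums and means over a list of sets are likewise compared across arrays only, and the brightest sets weigh most in a sum. The array medians over all probe sets lay between 74.1 and 77.6, and the 90th percentiles between 447 and 562. Genes listed here as ILC markers, though not all particular to lymphocytes, were read on every array. Ptprc, which encodes CD45, was at 1052 to 1705, and Id2, a regulator of ILC development, at 6727 to 7905. Il7r, the interleukin-7 receptor chain, was at 2566 to 3806. Markers used for other cell types were read as well, and which cells their signal came from was not tested. The mast cell enzyme gene Cpa3 was read at 2009 to 4965 on 6 arrays and at 19.9 to 21.5 on the other 3, and Cd3e, a subunit of the T cell receptor complex, at 158 to 270.3 on Rag1-sufficient and 763 to 1981 on Rag1-/- arrays.

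The collagen chains differed little from array to array. The ratio of a probe set's highest to its lowest array had a median of 1.30 over the 46 sets, against 1.44 over the 17445 probe sets that passed the filter on dim values (a mean of at least about 41.6). It was under 1.5-fold in 40 of 46, against 56.9% of the sets that passed the filter, and under 2-fold in all 46. Identical values on 2 or more arrays occurred in 22 of 46 sets (47.8%), against 50.0% of all sets. The filter kept 44 of the 46 sets, 1 for each gene. The second sets of Col6a5 (28.6 to 34.5) and Col6a6 (30.3 to 41.1) fell below it. The second sets of Col6a5 and Col6a6 were highest in Rag1-/- GFP- replicate 1, and the tested ones in Rag1-/- GFP+ replicate 1. For Col6a5 the tested set was lowest in Rag1-/- GFP- replicate 1 (90.6).

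No collagen chain passed the threshold (limma, adjusted p under 0.05 over all 17445 sets) in any of 8 tests. The background was 0.803% of all sets for GFP+ against GFP- cells within Rag1-sufficient mice (140 sets) and 0% for that contrast in Rag1-/- mice (0 sets). It was 0.246% for Rag1-/- against Rag1-sufficient mice in GFP+ cells (43 sets) and 0.143% in GFP- cells (25 sets). Averaged over the genotypes, the fractions differed in 0.212% of sets (37), and averaged over the fractions, the genotypes in 0.086% (15). The interaction, the gate difference in Rag1-/- minus that in Rag1-sufficient mice, was called in 0% (0 sets) and the F-test over the 4 groups in 0.797% (139 sets). At these shares fewer than 1 call among 44 sets would match the background in each test. At an unadjusted p under 0.05, in the same order, 2, 2, 1, 5, 0, 5, 3 and 2 of the 44 chains passed, against 2264, 1098, 1190, 3014, 1287, 1717, 2378 and 2205 of all sets. The shares of the chains were 4.55%, 4.55%, 2.27%, 11.4%, 0%, 11.4%, 6.82% and 4.55%. Those of all sets were 13%, 6.29%, 6.82%, 17.3%, 7.38%, 9.84%, 13.6% and 12.6%. Only for the genotypes averaged over fractions was the share of the chains the larger.

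The fit bounds how far the readings of the chains could differ, taking 1 chain at a time. The 95% confidence interval of the log2 difference lay within ±1, a 2-fold change, for all 44 chains in both gate comparisons and in the comparison of genotypes in GFP- cells. In GFP+ cells it did so for 43 of 44, the exception being Col6a3 with an upper bound of 1.02. Intervals lay within 1.5-fold for 40, 41, 42 and 40 of the 44 chains, in the order gate in Rag1-sufficient, gate in Rag1-/-, genotype in GFP+ and genotype in GFP- cells. For the interaction, 42 of the 44 intervals lay within ±1 and 27 within 1.5-fold. These intervals describe intensities, and without detection calls they do not bound the amount of RNA. In bulk samples such as these, fewer collagen-making cells and less collagen RNA per cell cannot be told apart.

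**Figure D1:**
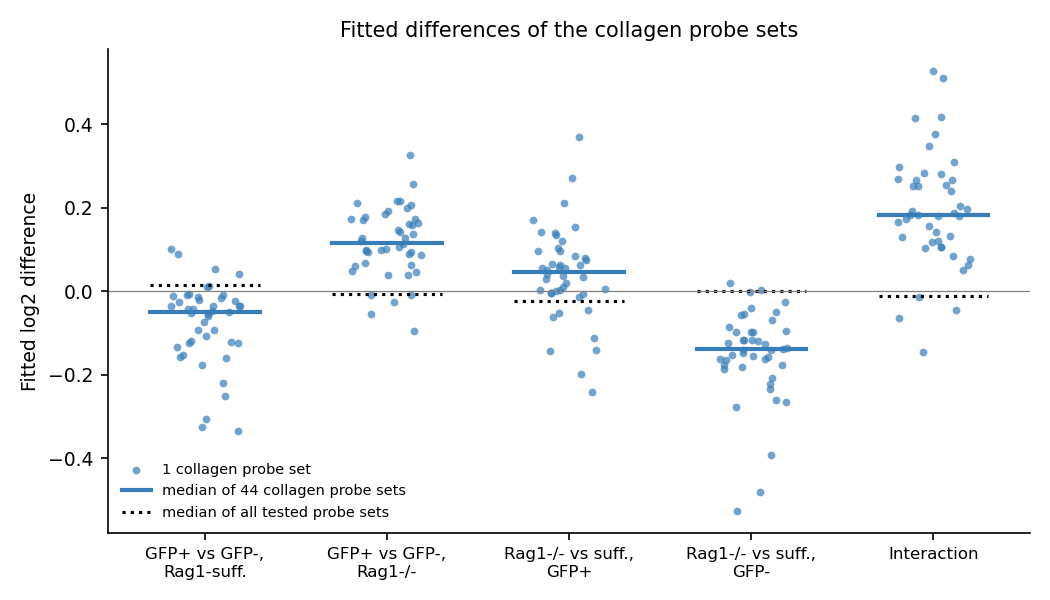
Fitted log2 differences of the 44 tested collagen probe sets (blue points, spread sideways at random) in 4 comparisons and their interaction, with the median of the collagens (blue line) and of all 17445 tested sets (dotted). The collagen median is lowest for Rag1-/- against Rag1-sufficient GFP- cells (-0.14) and highest for the interaction (0.18), and no single point passed the test.

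Though none passed singly, the chains leaned to the same side within a comparison. Their signs are not independent, as the median r over all 946 pairs of the 44 genes was 0.554. A shift of 1 array can therefore move many signs at once. In GFP- cells 42 of 44 had a negative difference between Rag1-/- and Rag1-sufficient mice, with a median of -0.14 on the log2 scale against 0.00 for all tested sets. In 30 of the 44 (68.2%) every Rag1-/- GFP- array lay below both Rag1-sufficient GFP- arrays, against a background of 17.6% of tested sets, and 0 lay above (background 23%). In Rag1-sufficient mice 38 of 44 had a negative GFP+ minus GFP- difference, with a median of -0.05 (0.01 for all), and 18 of 44 (40.9%) did not overlap and were lower, against 21.2%, while 1 was higher (background 29%). That median was -0.05 (11 of 44 positive) after quantile normalization, and -0.02 (15 of 44 positive) after centring every array on its median, which moved the median of all tested sets to 0.04. This contrast shares the Rag1-sufficient GFP- arrays with the preceding one, so both can move with those arrays. In Rag1-/- mice 39 of 44 were positive, with a median of 0.12 (-0.01 for all), and 7 of 44 (15.9%) did not overlap and were higher, against 5.27%, while 0 were lower (background 10.1%). Between genotypes in GFP+ cells 31 of 44 were positive with a median of 0.05 (-0.02 for all), and 2 of 44 lay apart in each direction (background 11% higher and 18.5% lower). The interaction was positive in 40 of 44 with a median of 0.18 (-0.01 for all).

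A single array carried much of the positive lean. Rag1-/- GFP+ replicate 1 held the highest reading for 26 of the 46 sets (56.5%), against 16.2% of tested sets, and Rag1-/- GFP- replicate 3 the lowest for 19 of 46, against 16.7% of tested sets. Without Rag1-/- GFP+ replicate 1 the gate median in Rag1-/- mice was 0.01 (26 of 44 positive) in place of 0.12. The genotype median in GFP+ cells was then -0.06 (6 of 44 positive) in place of 0.05, and the interaction 0.06 (34 of 44) in place of 0.18. Without Rag1-/- GFP+ replicate 2, the other array of that group, the 3 medians were 0.25 (43 of 44 positive), 0.17 (39 of 44) and 0.29 (43 of 44). The genotype median in GFP- cells does not use that array and stayed at -0.14. It was -0.11 (2 of 44 positive) without Rag1-/- GFP- replicate 3, and -0.08 (8 of 44) after the same centring, which moved the median of all tested sets to 0.06. Without both arrays, a choice made after seeing the data, the gate median in Rag1-/- mice was -0.01 (19 of 44 positive).

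**Figure D2:**
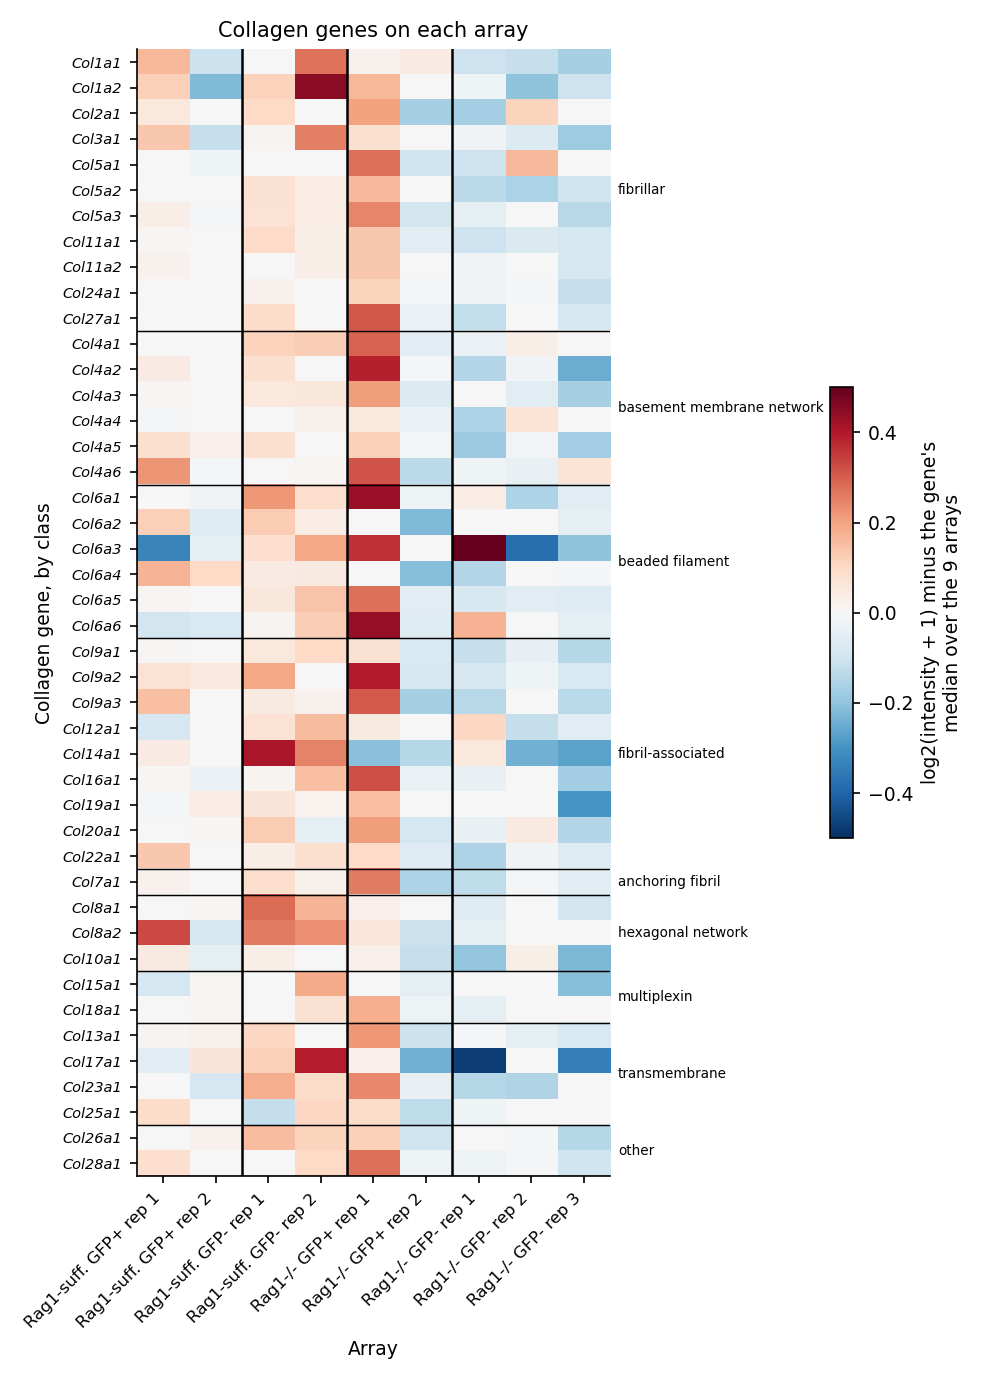
Deviation of each collagen gene (rows, by class) from its own median over the 9 arrays, in log2(intensity + 1), with colours saturating at 0.5 in either direction and vertical lines between the 4 groups. Rag1-/- GFP+ replicate 1 is the reddest column, holding the highest reading for 26 of 46 probe sets, while the darkest cells of Col1a2 and Col17a1 above their medians lie in Rag1-sufficient GFP- replicate 2.

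The mean collagen level moved with the spread of the arrays. The mean of log2(intensity + 1) over the 46 sets was highest (6.81) in Rag1-/- GFP+ replicate 1, whose 90th percentile over all probe sets was the lowest at 447. It was lowest (6.54) in Rag1-/- GFP- replicate 3, whose 90th percentile was the highest at 562. The Rag1-sufficient GFP- arrays stood next to the first, with collagen means of 6.72 and 6.74 and 90th percentiles of 479 and 483. After quantile normalization, which gives all arrays the same 90th percentile, the medians were -0.13 between genotypes in GFP- cells and 0.14 between fractions in Rag1-/- mice. The part of the array spread in the collagen differences was not tested, with or without this normalization.

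**Figure D3:**
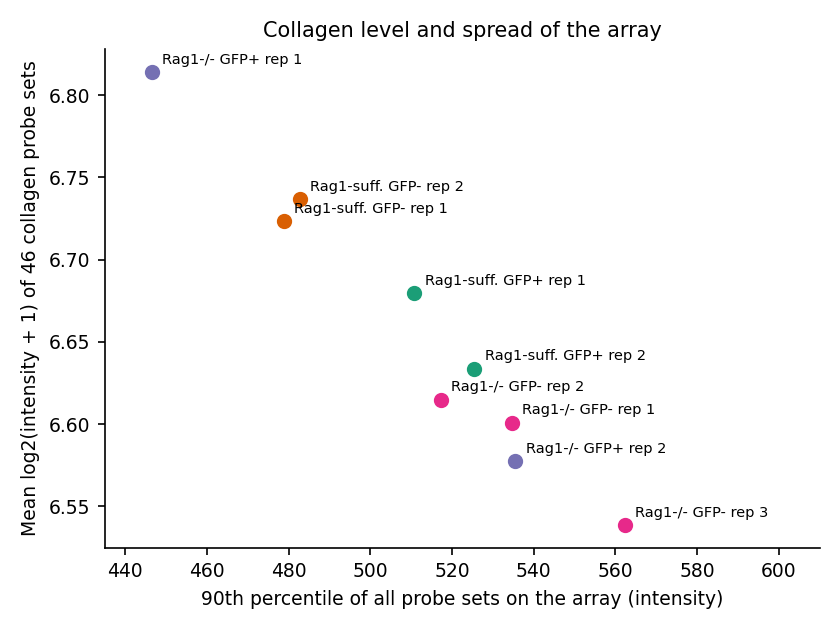
Mean log2(intensity + 1) of the 46 collagen probe sets against the 90th percentile of all probe sets, 1 point per array, coloured by group. The array with the lowest 90th percentile (447) has the highest collagen mean (6.81), and that with the highest (562) the lowest (6.54).

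Type I collagen, the main protein of dermal fibres, is built of the chains of Col1a1 and Col1a2. Col1a1 was read at 255 and 210.2 in Rag1-sufficient GFP+, 227 and 274 in Rag1-sufficient GFP-, 230.3 and 234 in Rag1-/- GFP+, and 211, 209.5 and 202 in Rag1-/- GFP- cells. Col1a2 was read at 168 and 132, 167 and 212, 174 and 154, and 152, 134 and 144, in the same order of groups. Rag1-sufficient GFP- replicate 2 was the highest array for both, and the 3 Rag1-/- GFP- arrays lay below both Rag1-sufficient GFP- arrays and below both Rag1-/- GFP+ arrays. Between genotypes in GFP- cells the difference was -0.26 ± 0.14 for Col1a1 (estimate ± SE, limma adjusted p = 0.35) and -0.39 ± 0.15 for Col1a2 (adjusted p = 0.243), and between fractions of Rag1-/- mice 0.16 ± 0.14 (adjusted p = 0.731) and 0.19 ± 0.15 (adjusted p = 0.718), so none passed. Between fractions of Rag1-sufficient mice it was -0.11 ± 0.15 for Col1a1 (adjusted p = 0.869) and -0.33 ± 0.16 for Col1a2 (adjusted p = 0.449). The Col1a1 value turned to 0.03 without Rag1-sufficient GFP+ replicate 2, and to 0.03 without GFP- replicate 2 of these mice. The interaction of Col1a2 was 0.53 ± 0.22 (limma adjusted p = 0.354).

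Type III collagen, which mixes with type I in the dermis, is built of Col3a1 alone. Col3a1 was read at 164 and 138 in Rag1-sufficient GFP+, 151 and 178 in Rag1-sufficient GFP-, 158 and 149 in Rag1-/- GFP+, and 147, 142 and 132 in Rag1-/- GFP- cells. Its highest array was again Rag1-sufficient GFP- replicate 2, and all 3 Rag1-/- GFP- arrays lay below both Rag1-sufficient GFP- arrays (-0.22 ± 0.12, limma adjusted p = 0.38) and below both Rag1-/- GFP+ arrays (0.13 ± 0.12 for GFP+ minus GFP-, adjusted p = 0.752).

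Over the 9 arrays these 3 chains rose and fell together. The correlation of log2 levels was r = 0.954 for Col1a1 with Col3a1 (rho = 0.933, exact permutation p = 5.51e-05 and 0.00075, adjusted 0.000827 and 0.00562 over 15 pairs, two-sided). It was r = 0.911 for Col1a2 with Col3a1 (rho = 0.933, exact permutation p = 0.000863 and 0.00075, adjusted 0.00647 and 0.00562). For Col1a1 with Col1a2 it was r = 0.88 (rho = 0.85, exact permutation p = 0.00204 and 0.00607, adjusted 0.0102 and 0.0304). Without the 2 arrays farthest from the median of the first gene, r was 0.89, 0.793 and 0.75 in that order. Over deviations from the group means it was 0.93, 0.885 and 0.867, pooled over the 4 groups. Within Rag1-/- GFP+ cells the array with the lower Col1a1 reading had the higher Col1a2 and Col3a1 readings. High correlation was common among collagens: over all 946 pairs of the 44 genes the median r was 0.554, and 17.5% exceeded 0.8. Without Rag1-/- GFP+ replicate 1 these were 0.527 and 10.9%. The paired type IV chains Col4a1 and Col4a2 had r = 0.819 on 9 arrays and 0.434 without that array, while Col1a1 and Col3a1 had 0.963 without it.

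None of the correlations of the same 3 chains with Dcn passed. Dcn encodes decorin, a small proteoglycan on collagen fibrils and a usual marker of dermal fibroblasts. Dcn was read at 859 and 314 in Rag1-sufficient GFP+, 479.5 and 673 in Rag1-sufficient GFP-, 97.1 and 855 in Rag1-/- GFP+, and 236, 409.8 and 440.2 in Rag1-/- GFP- cells. Its replicates differed far more than those of any collagen chain, with an 8.85-fold range over the arrays, and all groups overlapped except the 2 GFP- groups. The correlation with Dcn was r = 0.416 for Col1a1 (rho = 0.533, exact permutation p = 0.266 and 0.148), 0.135 for Col1a2 (rho = 0.317, p = 0.718 and 0.41) and 0.197 for Col3a1 (rho = 0.4, p = 0.609 and 0.291), with adjusted values of at least 0.4. Lum, which encodes the related lumican, was read at 75.4 and 30.2, 38.2 and 58.3, 26.5 and 88.6, and 34.0, 36.2 and 47.2. Both Dcn and Lum were lowest in Rag1-/- GFP+ replicate 1, the array in which most collagen sets were highest. How far the low Dcn reading of that array set the correlations with Dcn was not tested.

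**Figure D4:**
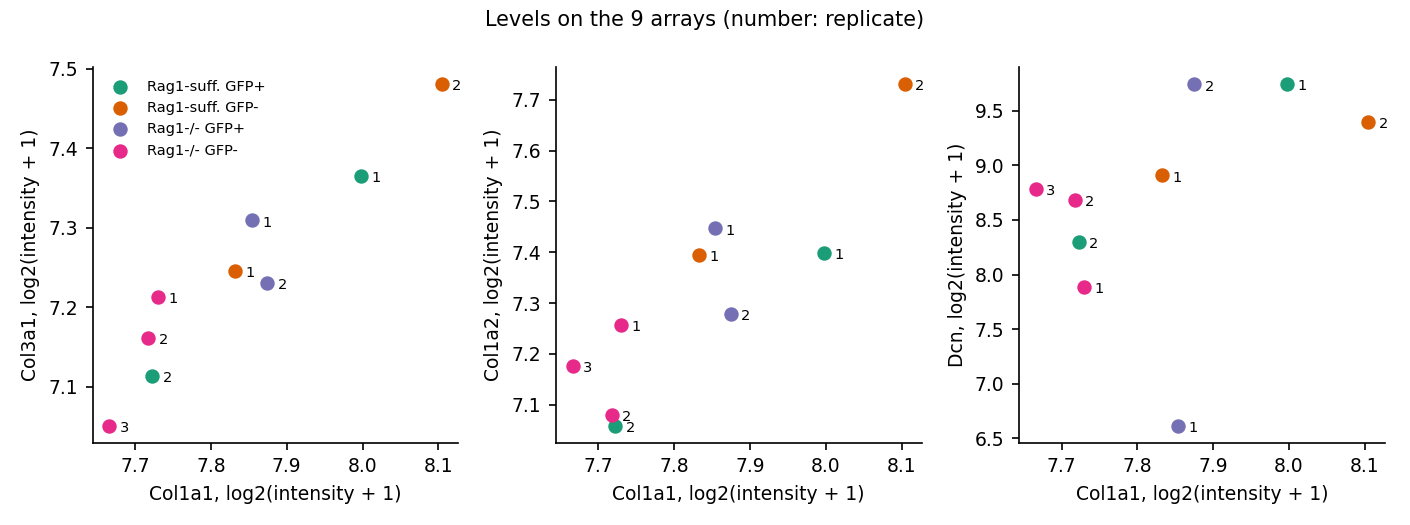
Log2(intensity + 1) of Col1a1 against Col3a1, Col1a2 and Dcn on the 9 arrays, coloured by group and numbered by replicate. The points for Col3a1 (r = 0.954) and Col1a2 (r = 0.88) lie along a line, and those for Dcn (r = 0.416) are scattered, with Rag1-/- GFP+ replicate 1 far below the others.

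Correlations with markers of other cells did not pass either. With Krt14, a keratin of basal keratinocytes, r was 0.568 for Col1a1, 0.423 for Col1a2 and 0.472 for Col3a1 (exact permutation p = 0.112, 0.257 and 0.201, rho 0.3, 0.217 and 0.367), and without the 2 farthest arrays it was 0.0864, -0.0483 and -0.153. With Pecam1, the endothelial adhesion molecule CD31, r was 0.233, 0.174 and 0.0192 (exact permutation p = 0.548, 0.66 and 0.961, rho 0.133, 0.0833 and 0.0833). Cpa3 split the arrays into 2 clusters, and within the 6 arrays of the higher readings r was 0.72, 0.706 and 0.662 (exact permutation p = 0.0875, 0.14 and 0.156, rho 0.657, 0.543 and 0.657). The adjusted values of these 9 pairs were 0.328 or more.

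Among the other fibrillar chains, Col5a1 and Col5a2 encode type V collagen, which sits in the core of type I fibrils and limits their width. Col5a1 was read at 141 and 139, 141 and 141, 171 and 132, and 131, 158 and 141, in the order Rag1-sufficient GFP+ and GFP-, Rag1-/- GFP+ and GFP-. Col5a2 was read at 76.2 and 76.3, 80.4 and 78.2, 85.4 and 76.2, and 69.4, 68.2 and 71.1. All Rag1-/- GFP- arrays were the lowest for Col5a2, and its gate difference in Rag1-/- mice was the collagen with the smallest p of that comparison (0.21 ± 0.08, limma adjusted p = 0.688). Its difference between genotypes in GFP- cells was -0.19 ± 0.08 (adjusted p = 0.274), and its interaction 0.27 ± 0.12 (adjusted p = 0.363). Of the 11 fibrillar chains 8 were highest in Rag1-/- GFP+ replicate 1, and the other 3 were Col1a1, Col1a2 and Col3a1. In GFP- cells 10 of 11 had a negative difference between genotypes (median -0.12), and in the gate of Rag1-/- mice 11 of 11 were positive (median 0.13).

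The type IV chains of the basement membrane network also peaked in that array, 5 of 6 of them there. Col4a1 was read at 106 and 106, 115 and 116, 130.1 and 102, and 104, 108 and 106. Col4a2, which assembles with it in most basement membranes, was read at 94.9 and 92.2, 97.5 and 92.2, 121 and 91.6, and 83.2, 91.0 and 77.5. The 2 Rag1-/- GFP+ arrays lay far apart for both, and for Col4a2 both were above all 3 Rag1-/- GFP- arrays (0.33 ± 0.13, limma adjusted p = 0.688). Col4a5, a chain of kidney and epidermal basement membrane, had the next smallest p of that comparison (0.18 ± 0.09, adjusted p = 0.688). Averaged over genotypes, the gate difference was 0.15 ± 0.09 for Col4a2 (limma adjusted p = 0.788) and 0.10 ± 0.06 for Col4a5 (adjusted p = 0.806). Col4a6, its partner, ranged from 39.2 in Rag1-/- GFP+ replicate 2 to 53.7 in replicate 1.

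The type VI chains form beaded filaments around cells and in the dermis. Col6a3 had the widest range of all members (1.94-fold), at 107 and 131 in Rag1-sufficient GFP+, 143 and 155 in Rag1-sufficient GFP-, 174 and 135 in Rag1-/- GFP+, and 201, 104 and 117 in Rag1-/- GFP- cells. Its highest and lowest readings were replicates of the same group, Rag1-/- GFP-. Col6a1 was read at 156 and 154, 181 and 165, 209.8 and 153, and 139.8 to 159.7 over the 3 Rag1-/- GFP- arrays, and Col6a2 at 207 and 182, 208 and 195, 190.4 and 163, and 190.4, 190.4 and 184. Col6a1 was lower in all Rag1-/- GFP- than in both Rag1-sufficient GFP- arrays, and so was Col6a2, which held 1 identical value on 3 arrays. Col6a4 had the smallest p among collagens between genotypes in GFP+ cells (-0.24 ± 0.10, limma adjusted p = 0.706), followed by Col6a6 (0.27 ± 0.17, adjusted p = 0.84). Col6a6 was at 236 in Rag1-/- GFP+ replicate 1 and at 164 to 196 on the other arrays.

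Of all chains, the fibril-associated Col14a1 had the smallest p between genotypes in GFP- cells. Type XIV collagen binds the surface of type I fibrils. Col14a1 was read at 105 and 102 in Rag1-sufficient GFP+, 135 and 121 in Rag1-sufficient GFP-, 87.7 and 91.9 in Rag1-/- GFP+, and 106, 85.8 and 84.2 in Rag1-/- GFP- cells. Both Rag1-sufficient GFP- arrays lay above the other 7, and Rag1-/- GFP+ replicate 1, high for most chains, was among the lowest. The difference between genotypes in GFP- cells was -0.48 ± 0.12 (95% interval -0.74 to -0.22, limma adjusted p = 0.147). It was -0.34 ± 0.09 averaged over fractions (adjusted p = 0.2), -0.31 ± 0.13 between fractions of Rag1-sufficient mice (adjusted p = 0.35), -0.17 ± 0.09 between fractions averaged over genotypes (adjusted p = 0.747) and -0.20 ± 0.13 between genotypes in GFP+ cells (adjusted p = 0.84). The F-test over the 4 groups gave an adjusted p of 0.254. In GFP- cells the difference passed in 2 alternatives. With array weights, which called 6.7% of all sets (1168) against 0.143% without them, it was -0.51 (adjusted p = 0.0245). Without Rag1-/- GFP- replicate 1, a fit that called 0.797% of all sets (139), it was -0.58 (adjusted p = 0.0495).

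Of the other 8 fibril-associated chains, 5 were highest in Rag1-/- GFP+ replicate 1. Col16a1, a chain of the upper dermis, was read there at 184 and at 130.1 to 163 elsewhere. Col9a2 and Col9a3, which with Col9a1 make the type IX collagen of cartilage, were read there at 235 and 227, and at 168 to 204 and 164 to 204 elsewhere. Col19a1, a minor chain, was lowest (41.3) in Rag1-/- GFP- replicate 3 and lay between 50.8 and 56.6 on the other 8 arrays.

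Type VIII collagen forms a hexagonal sheet, known best under the corneal and vascular endothelium. Its chain Col8a1 was read at 46.4 and 46.7 in Rag1-sufficient GFP+, 56.5 and 52.3 in Rag1-sufficient GFP-, 47.2 and 46.3 in Rag1-/- GFP+, and 44.4, 46.3 and 43.5 in Rag1-/- GFP- cells. The 2 Rag1-sufficient GFP- arrays lay above the other 7, which differed by little. The difference was -0.28 ± 0.07 between genotypes in GFP- cells (limma adjusted p = 0.159), -0.22 ± 0.08 between fractions of Rag1-sufficient mice (adjusted p = 0.272), and the interaction was 0.28 ± 0.10 (adjusted p = 0.311). With array weights, under which 6.7% of all sets passed, the first was -0.26 with an adjusted p of 0.0448. Averaged over fractions the genotypes differed by -0.14 ± 0.05 (adjusted p = 0.444), and the F-test gave an adjusted p of 0.321. These levels are close to the filter limit.

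The chains tied to the epidermis behaved unlike each other. Col17a1, the transmembrane collagen that holds basal keratinocytes to the basement membrane, was read at 121 and 132 in Rag1-sufficient GFP+, 137 and 166 in Rag1-sufficient GFP-, 128 and 107 in Rag1-/- GFP+, and 90.9, 126 and 99.4 in Rag1-/- GFP- cells. All Rag1-/- GFP- arrays were below both Rag1-sufficient GFP- arrays (-0.53 ± 0.16, limma adjusted p = 0.196), and over both fractions the genotypes differed by -0.32 ± 0.12 (adjusted p = 0.427), with an adjusted p of 0.406 in the F-test. Krt14, of the same cells, was highest in the same array, at 782 in Rag1-sufficient GFP- replicate 2 against 96.8 to 375 elsewhere, and the 15 keratinocyte markers summed to 3112 and 4826 in these GFP- arrays against 2143 to 2961 in Rag1-/- GFP- arrays. Of the 15, 13 were highest in Rag1-sufficient GFP- replicate 2 and 0 of 14 tested passed in any comparison. Their part in the Col17a1 values was not tested. Col7a1, the anchoring fibril chain made by keratinocytes and fibroblasts, was read at 154 and 152, 161 and 154, 182 and 136, and 139, 151 and 146, so its extremes were the 2 replicates of Rag1-/- GFP+ cells.

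The multiplexins Col15a1 and Col18a1, which link basement membranes to the matrix of vessels, varied little by group. Col15a1 was read at 122 and 131, 130.1 and 148, 130.1 and 126, and 130.1, 130.1 and 112, with 1 identical value on 4 arrays. Col18a1 lay between 101 and 118 on all 9 arrays.

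**Figure D5:**
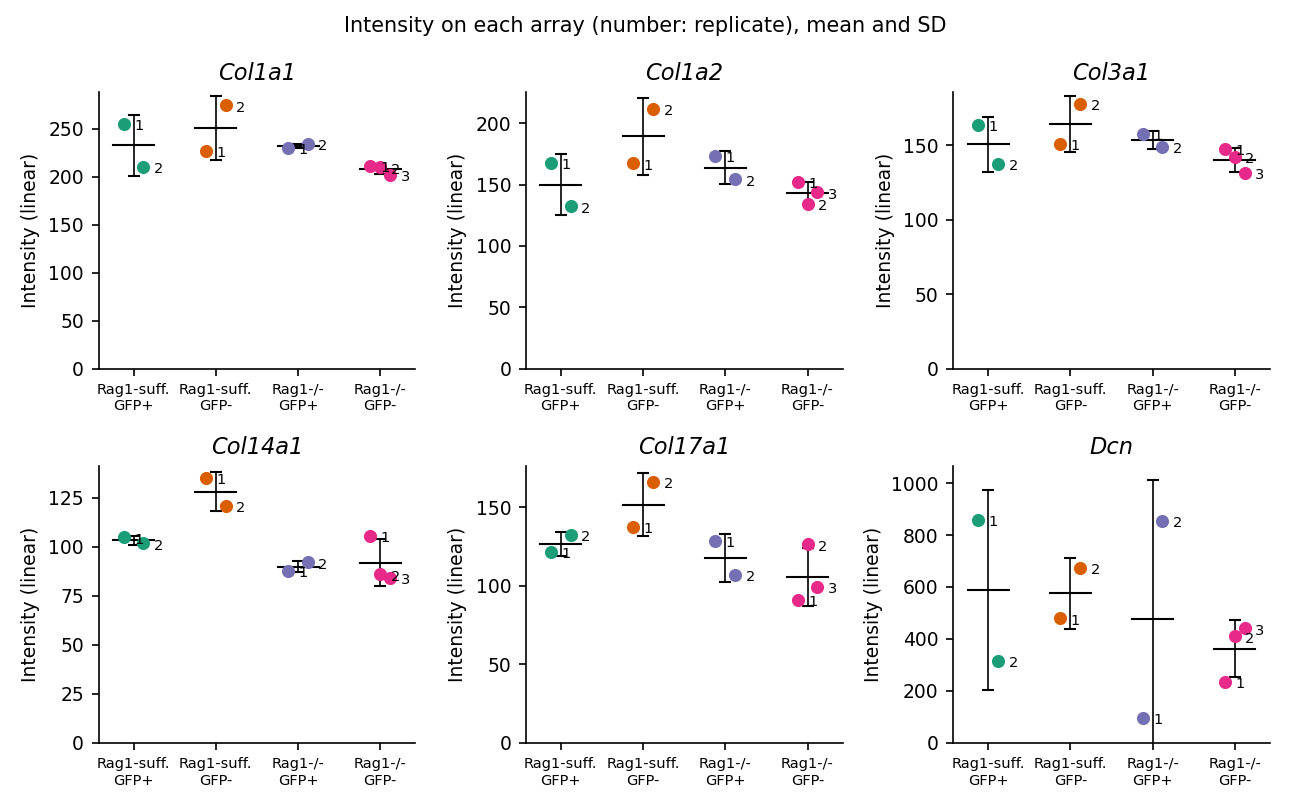
Intensity on each array (points, numbered by replicate) with the mean and SD of each group for 5 collagen genes and Dcn, on linear axes from 0. In Col1a1, Col1a2, Col3a1 and Col17a1 the highest point is Rag1-sufficient GFP- replicate 2, Col14a1 is highest in both arrays of that group, and Dcn spreads from 97.1 to 859, its SD bar in Rag1-/- GFP+ cells being wider than its mean.

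A set of 7 chains known mainly from cartilage and a set of 3 dermal fibril chains did not peak on the same array. In 7 chains of cartilage (Col2a1, Col9a1, Col9a2, Col9a3, Col10a1, Col11a1 and Col11a2), a list chosen after their values were seen, the mean deviation from each gene's median was highest in Rag1-/- GFP+ replicate 1 (0.18 on the log2 scale), where 5 of 7 had their highest reading. Col1a1, Col1a2 and Col3a1 were also grouped after their values were seen. Their mean deviation was highest in Rag1-sufficient GFP- replicate 2 (0.33), where 3 of 3 had their highest reading. The type V chains Col5a1, Col5a2 and Col5a3 are in neither set and were highest in Rag1-/- GFP+ replicate 1, as were 8 of the 11 fibrillar chains. Between genotypes in GFP- cells all 7 cartilage chains had negative differences (median -0.15), as did Col1a1, Col1a2 and Col3a1 (median -0.26). The labels name skin as the only tissue, and what the probe sets of its chains read here was not tested.

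The fibroblast markers other than collagens showed the same lean in GFP- cells. Of 24 listed, 23 were measured and 20 tested, and 0 passed in any comparison. Between genotypes in GFP- cells 19 of 20 had negative differences with a median of -0.20. Between fractions of Rag1-sufficient mice 7 of 20 were positive (median -0.13), between fractions of Rag1-/- mice 8 of 20 were positive (median -0.01) against 39 of 44 collagens (0.12), and between genotypes in GFP+ cells 6 of 20 (median -0.08) against 31 of 44 (0.05). Their summed intensity was 3586 to 4409 in Rag1-sufficient GFP-, 3235 to 3588 in Rag1-sufficient GFP+, 2349 to 3634 in Rag1-/- GFP+ and 2610 to 3292 in Rag1-/- GFP- arrays, and no measured marker was at 0. Pdgfra, the growth factor receptor of dermal fibroblasts, was read at 87.7 and 126, 167 and 197, 82.0 and 123, and 146, 102 and 107 (-0.63 ± 0.23 between genotypes in GFP- cells, limma adjusted p = 0.235). In Rag1-/- GFP+ replicate 1, where 26 of 46 collagen sets were highest, 7 of the 23 fibroblast markers were at their lowest and 2 at their highest. Of all tested sets, 19.1% were lowest and 16.2% highest in that array. Of 15 endothelial markers 12 were tested, 0 passed, and all 12 were negative between genotypes in GFP- cells (median -0.24). Of 10 markers of pericytes and smooth muscle 9 were tested and 0 passed, and in that comparison 4 of 9 were positive (median -0.02). The lean was not particular to stromal markers. Positive there were 1 of 14 keratinocyte (median -0.83), 0 of 10 mast cell (-1.19) and 0 of 5 melanocyte and Schwann cell markers (-0.28). Of the marker lists only that of T cells had a positive median there (0.51, 6 of 9 positive). Of all tested sets 50.1% were positive. Mast cell markers summed to 10750 to 10945 in Rag1-sufficient GFP- arrays, 4938 to 6283 in Rag1-/- GFP- arrays, 1460 and 5027 in Rag1-/- GFP+ and 1008 and 1118 in Rag1-sufficient GFP+ arrays. The part of these cells in the collagen readings was not tested.

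Among the genes that build collagen after translation, 1 gene passed. Of 24 listed enzymes and chaperones for chain hydroxylation, folding and export, 21 were tested. Colgalt2, which adds galactose to collagen hydroxylysines, rose in Rag1-/- mice averaged over fractions (0.78 ± 0.10, limma adjusted p = 0.0466), and it passed the F-test over the 4 groups (adjusted p = 0.0215). It was read at 61.4 and 47.6 in Rag1-sufficient GFP+, 93.7 and 83.4 in Rag1-sufficient GFP-, 101 and 101 in Rag1-/- GFP+, and 140.2, 128 and 159.9 in Rag1-/- GFP- cells, with no overlap of genotypes. The call averaged over fractions was lost without any 1 of 8 arrays and held only without Rag1-sufficient GFP+ replicate 1 (adjusted p = 0.0447 to 0.277). Serpinh1, the collagen chaperone HSP47, lay between 119 and 171 on all arrays and did not pass. Of 14 genes for propeptide cleavage and crosslinking, 9 were tested and 0 passed in any comparison, and of 20 matrix partners of collagen, 17 were tested and 0 passed.

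Among 13 listed collagen receptors, 12 were tested and 1 passed. Adgrg1, an adhesion receptor that binds type III collagen and is also known from cytotoxic lymphocytes, rose in Rag1-/- GFP- cells (1.11 ± 0.15, limma adjusted p = 0.0397) and passed the F-test (adjusted p = 0.0402). It was read at 814 and 750.3 in Rag1-sufficient GFP+, 665 and 695 in Rag1-sufficient GFP-, 952 and 1108 in Rag1-/- GFP+, and 1407, 1686 and 1329.8 in Rag1-/- GFP- cells. The call in GFP- cells held without either Rag1-/- GFP+ array or Rag1-/- GFP- replicate 1 and was lost without each of the other 6 (adjusted p up to 0.404, differences of 1.01 to 1.18).

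Of 16 genes for collagen degradation 9 were tested and 2 passed in at least 1 comparison. Mmp10, a stromelysin that cleaves several matrix proteins, was read at 126 and 145 in Rag1-sufficient GFP+, 74.2 and 77.7 in Rag1-sufficient GFP-, 69.0 and 57.5 in Rag1-/- GFP+, and 56.1, 60.1 and 48.5 in Rag1-/- GFP- cells. It rose in GFP+ cells of Rag1-sufficient mice (0.82 ± 0.13, limma adjusted p = 0.0319) and fell in Rag1-/- GFP+ cells (-1.09 ± 0.13, adjusted p = 0.0173). Averaged over fractions it fell in Rag1-/- mice (-0.78 ± 0.09, adjusted p = 0.0392), a call that held only without Rag1-/- GFP+ replicate 1. The first 2 contrasts use the same Rag1-sufficient GFP+ arrays, which lay above the other 7. Each of these 2 calls was lost without any 1 of 6 arrays, among them each Rag1-sufficient array (adjusted p up to 0.236 and 0.206). Timp2, an inhibitor of matrix metalloproteinases, rose in Rag1-/- mice averaged over fractions (0.91 ± 0.12, adjusted p = 0.0466), from 310.5 to 494 on the Rag1-sufficient arrays to 561 to 934 on the Rag1-/- arrays. That call held only without 1 of the Rag1-/- GFP+ arrays (adjusted p up to 0.295). Mmp10 and Timp2 also passed the F-test (adjusted p = 0.0204 and 0.0245).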

How the data were processed

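As deposited by the authors, each of 9 Affymetrix one-colour arrays has a linear intensity for every probe set. MAS5 is named in the submitters' processing notes, with neither version nor purpose, while the scaling of the arrays and the build are not given in the sources used here. Biotinylated single-stranded DNA was hybridised, per the labels' protocols. Nothing was renormalized. Values were transformed as log2(value + 1), which understates changes of dim genes, and probe sets in the lowest 30% by mean over the arrays were left out. A mean per group was fitted by limma 3.58.1 under R 4.3.3, using lmFit and a trended eBayes with 3.56 prior and 5 residual degrees of freedom. Two-sided p-values were adjusted (Benjamini-Hochberg) over the 17445 probe sets left, with 0.05 as the threshold. Errors of differences are standard errors. The number of arrays limits the precision.

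Genes were named by the platform's symbols. All 46 member sets matched RefSeq (GRCm38.p6), the source of the promoters. A gene with several probe sets was represented by the set with the highest mean. Array values are given for a fixed panel of 15 chains and the 12 with the widest range, fitted differences for the 3 chains with the smallest p in each test, and pathway genes where they passed. The members, collagen classes, marker lists, comparisons and settings were chosen with earlier results of these data known. Correlations used exact permutation in Python 3.11.15 with scipy 1.17.1.

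Alternatives were pseudocounts of 16 and 50, no filter and a 50% filter, quantile normalization, median centring, array weights, no trend, robust eBayes, the 2 groups alone, a replicate block and each array left out. Leaving out both Rag1-/- GFP+ replicate 1 and Rag1-/- GFP- replicate 3 was added after seeing the data. The fit was tested on simulated data.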

Additional observations from a re-analysis of the deposited data

How the results depend on the processing

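Of 164 counts of collagen chains past the threshold (8 tests under the alternatives), 162 stayed at 0. Between genotypes in GFP- cells the count was 2 with array weights (Col14a1 and Col8a1, 4.55% of the 44, with 6.7% of all probe sets called) and ran from 0 to 1 over the arrays left out, the 1 being Col14a1 without Rag1-/- GFP- replicate 1 (139 calls over all sets). The cause was not tested. Leaving out 1 array gave GFP+ minus GFP- differences in Rag1-sufficient mice from -0.25 (-0.2455 without GFP+ replicate 1) to 0.03 for Col1a1, above 0 without GFP+ replicate 2 (0.02961) or GFP- replicate 2 (0.02822), and from -0.25 to 0.00149 for Col3a1, above 0 without GFP+ replicate 2. The 3 correlations among Col1a1, Col1a2 and Col3a1 stayed positive in both alternatives, and of all 30 alternative correlations 8 changed sign, in pairs that had not passed. Over deviations from group means that with Pecam1 was -0.567 for Col1a2 and -0.764 for Col3a1. With the replicate number as a block, the count was 0 in all 8 tests. The deviations of same-numbered arrays correlated between -0.507 and 0.237 over 12 pairs. In a group of 2 arrays the deviations are mirror images, so pairs between such groups repeat their values. The 2 pairs above 0.1 hold the same value, 0.237. Such a check cannot settle whether the numbers pair the samples. The block changed no call of a collagen chain, and it ended those of Colgalt2 (adjusted p = 0.057), Adgrg1 (0.127), Mmp10 (0.0573, 0.0804 and 0.0803) and Timp2 (0.0996) given in the text (limma). As number 3 occurs in Rag1-/- GFP- alone, the block also takes that array out of the comparisons, and leaving it out ended 4 of these calls (0.0873, 0.0922 and 0.0873 for Colgalt2, Adgrg1 and Timp2, and 0.0673 for Mmp10 averaged over fractions) but not the other 2 of Mmp10. No filter ended the calls of Colgalt2 (0.0725), Timp2 (0.0568) and Mmp10 between fractions (0.0503) and averaged over fractions (0.0568). No trend ended those of Colgalt2 (0.0588) and Mmp10 (0.0548, 0.0531 and 0.0513), the 50% filter that of Adgrg1 (0.0646), and quantile normalization those of Adgrg1 (0.0714) and Timp2 (0.0767). Groups of 2 or 3 arrays limit these data: the fitted differences of the chains were under 0.5 on the log2 scale, except for Col17a1 between genotypes in GFP- cells and the interactions of Col1a2 and Col6a3.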
